A study of Drosophila melanogaster with 23 samples.

Results

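A set of 120 genes whose transcripts were lower in flies kept at 28 °C than in flies kept at 18 °C, in males as well as in females, was taken from 9642 ranked genes of Drosophila melanogaster. The score of a gene was the smaller of its 2 falls, one per sex, on the scale of mean log2 (CPM + 1), where CPM scales each count to its library's total. Genes had to reach 0.5 CPM in each of the 23 libraries and to carry a symbol, and the 120 highest scores were kept. The genes were thus chosen by their measured values in the 18 and 28 °C libraries of both sexes, and this difference is described here without a test. The libraries of flies kept at 24 °C entered the choice only through the minimum of 0.5 CPM and not through the score.

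The study asked which transcripts go with the lifespan that temperature sets. Each library was made from a pool of 10 whole virgin flies of the white-eyed laboratory stock w1118, all of 1 sex, kept at 24 °C until about 5 days of age and then randomized to a temperature. The groups were males at 18, 24 and 28 °C, with 4, 4 and 3 libraries, and females at 18, 24 and 28 °C, with 4 libraries each. Collection was at an age of 45 days in the 18 and 24 °C groups and of 35 days in the 28 °C groups. Age and temperature cannot be told apart in any comparison of 28 °C with a cooler group. The pools were separate groups of flies from 1 stock, and p-values measure the spread between such pools.

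The body temperature of flies largely follows that of their surroundings, and warmth goes with a higher metabolic rate and a shorter life. Much of the fly's behavior runs through small sets of cells: photoreceptors, olfactory neurons and the support cells that secrete odorant binding proteins, neurosecretory cells that release peptides, clock neurons, and the muscles they drive. Transcripts of such cells are diluted in whole-body RNA, and in females a large ovary adds RNA of its own. In whole bodies, fewer cells of a type and less RNA per cell cannot be told apart.

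The label of the set matched its values. All 120 genes had a lower mean at 28 than at 18 °C in both sexes, which the rule fixes. The change between 18 and 28 °C lay between -2.81 and -0.75 in males, with a median of -1.05, and between -3.44 and -0.75 in females, with a median of -1.02, on the log2 (CPM + 1) scale. Over all ranked genes the medians were 0.01 in males and -0.13 in females. In 37 of the genes the mean fell by more than 1 on this scale in both sexes, beside 0.38% of all ranked genes. The change was lower in females than in males for 49, or 40.83%, beside 56.67% of all ranked genes. The libraries at 28 °C lay below those at 18 °C without overlap for 117 genes in males and 119 in females, beside 22.97% and 29.3% of all ranked genes. Just inside the rank limit stood CG13947, FipoQ and mamo, with scores of 0.751, 0.750 and 0.750, and just outside it mei-P26, sqa and Hk, with scores of 0.749, 0.746 and 0.746.

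**Figure D1:**
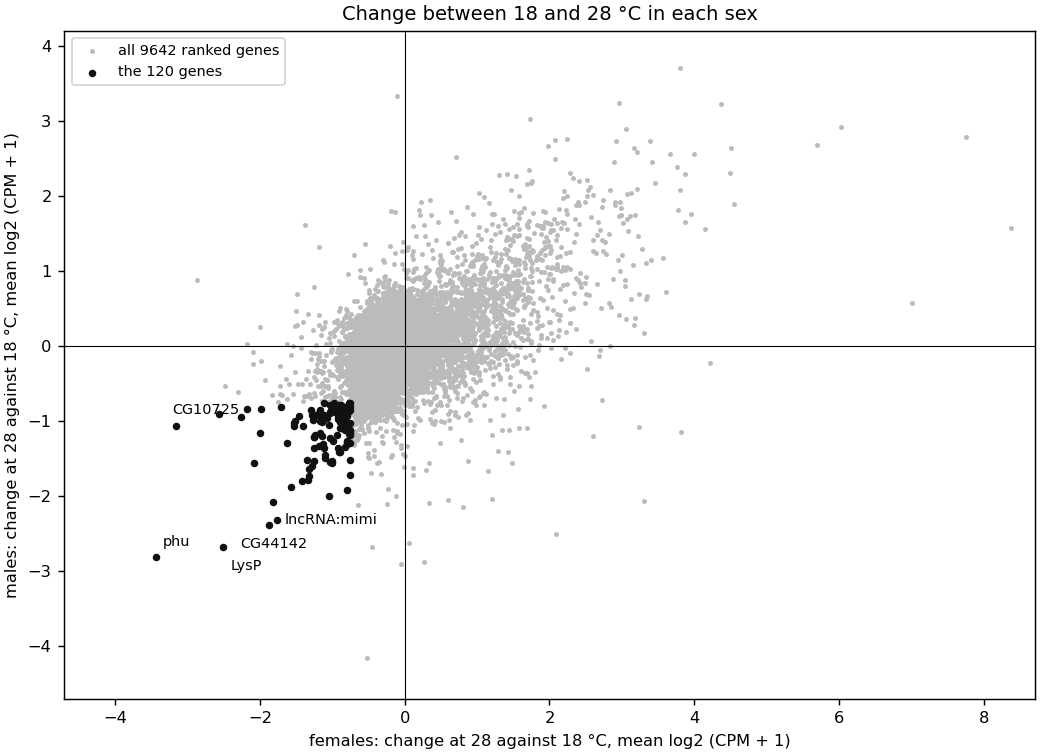
Change in mean log2 (CPM + 1) at 28 against 18 °C in males (vertical axis) and in females (horizontal axis) for all 9642 ranked genes (grey) and the 120 chosen genes (black). The chosen genes fill the lower left corner, with phu at -2.81 in males and -3.44 in females the farthest, which is what the rule selects.

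Of the 120 genes, 110 code for proteins, 4 are long noncoding RNAs, 2 are antisense RNAs, 3 are alternative segments of the trans-spliced gene mod(mdg4) and 1 is a pre-rRNA. The segments pre-mod(mdg4)-T and pre-mod(mdg4)-Z had identical counts in every library, which left 119 distinct rows. Their genes were spread over the genome, with 36 on 3R, 23 on 2R, 21 on X, 19 on 3L, 18 on 2L, 2 on chromosome 4 and 1 annotated on X and Y. No distances were computed for other genes. Of the 120, 11 had another member of the set within 10 kb. Among these, Obp19a and Obp19b lay 211 bp apart on X (chrX:20415744-20416521 and chrX:20416733-20417812 in dm6), CG6290 and CG32551 634 bp apart on X, phu and CG16779 1123 bp apart on 3R, and Octalpha2R and CG7720 4110 bp apart on 3R, with the 3 mod(mdg4) segments making up the rest. The gene models of 45 members overlap another gene of the table, 37 of them on the opposite strand. Whether the libraries kept strand is not given in the sources used here. Reads from transcribed sequence that genes on opposite strands share therefore cannot be assigned with certainty. Such pairs include per with dyw, Hug with Octbeta3R and Ddc with CG10561. The overlaps are of whole gene spans, introns included, and how much transcribed sequence the pairs share was not measured.

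The highest score belonged to phu (chr3R:9494801-9496723 in dm6). Male libraries held 47.3, 46.5, 75.7 and 45.9 CPM at 18 °C, 29.5, 31.1, 19.0 and 23.4 CPM at 24 °C and 0.703, 16.4 and 13.9 CPM at 28 °C. Female libraries held 18.9, 24.8, 30.8 and 24.5 CPM at 18 °C, 14.0, 12.6, 10.4 and 11.8 CPM at 24 °C and 0.690, 1.22, 1.04 and 2.95 CPM at 28 °C. The groups at 18 and 28 °C did not overlap in either sex, and 1 of the 3 male libraries at 28 °C stood far below the other two. The second was LysP (chr3L:1218082-1218696), which encodes a lysozyme, an enzyme that cleaves bacterial cell walls. It had 72.1, 68.3, 76.7 and 68.3 CPM at 18 °C, 10.5, 36.2, 30.9 and 40.2 CPM at 24 °C and 6.28, 13.3 and 12.8 CPM at 28 °C in males. In females it had 104, 119, 120.3 and 90.7 CPM at 18 °C, 70.2, 81.2, 96.5 and 70.9 CPM at 24 °C and 10.3, 19.8, 20.3 and 25.7 CPM at 28 °C. The lncRNA:mimi, also among the 5 highest scores, had group means of 647, 311 and 127 CPM in males and 142, 123 and 41.9 CPM in females at 18, 24 and 28 °C. Beside these, CG44142 and plh completed the 5 highest scores, and in males the libraries of CG44142 at 28 °C held 0.603, 0.596 and 0.503 CPM, against 7.78, 9.94, 5.22 and 6.48 CPM at 18 °C.

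**Figure D2:**
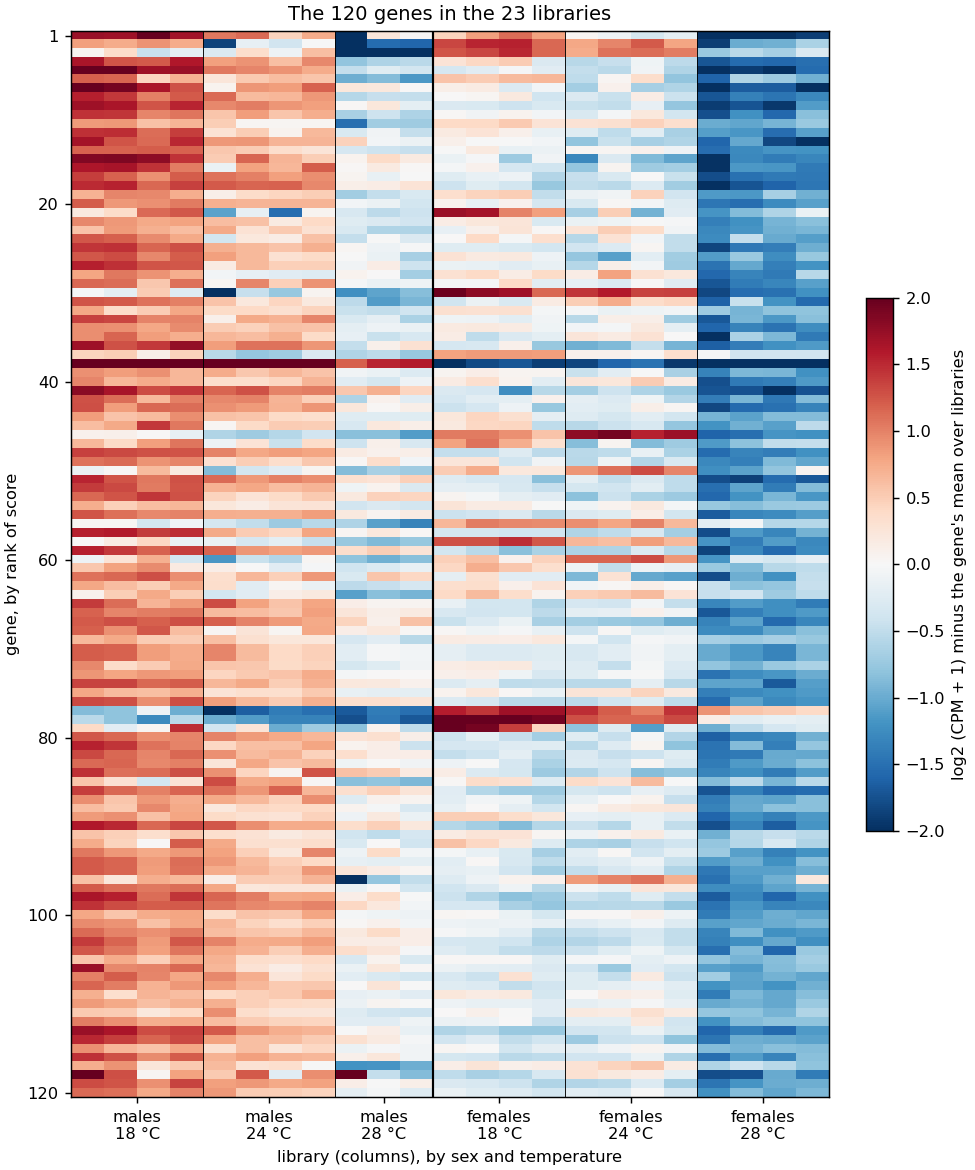
Log2 (CPM + 1) of each of the 120 genes (rows, by rank of score) in the 23 libraries (columns), less the gene's mean over all libraries, with colors limited to the range from -2 to 2. Males at 18 °C are red in most rows and females at 28 °C blue in most rows, while the few rows that are red in females belong to genes higher in that sex, such as rtet and CG31517.

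Genes of nerve signalling made up a part of the set. Roles were assigned from textbook knowledge after the set was seen, and 54 genes received one. Of the neuropeptide genes, Hug encodes hugin, a peptide that links feeding and locomotion, Dsk encodes drosulfakinin, a satiety peptide, and Nplp1 encodes a neuropeptide precursor. Their partners 7B2, a chaperone of a prohormone convertase, and Pal2, an enzyme of peptide amidation, were also in the set. Hug had 22.1, 21.9, 15.8 and 16.8 CPM at 18 °C, 11.5, 14.1, 11.5 and 13.1 CPM at 24 °C and 4.42, 5.42 and 4.57 CPM at 28 °C in males. Its female libraries held 7.64, 7.12, 7.98 and 7.19 CPM at 18 °C, 5.92, 7.32, 8.91 and 5.61 CPM at 24 °C and 1.51, 2.70, 1.87 and 3.77 CPM at 28 °C. In both sexes every library at 28 °C lay below every library at 24 °C, and in females the 24 °C libraries overlapped those at 18 °C. The medians of the change at 28 against 18 °C over these 5 genes were -1.26 in males and -0.92 in females.

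Transmitter synthesis and reception was represented by Ddc, the dopa decarboxylase that makes dopamine and serotonin, by the octopamine receptor Octalpha2R, the glutamate-gated chloride channel GluClalpha, the acetylcholine receptor subunits nAChRbeta1 and nAChRbeta2 and the calcium channel subunit Ca-beta. The nicotinic subunit nAChRbeta1 held 200.5, 189, 140.1 and 175 CPM at 18 °C, 146, 131, 109.6 and 112 CPM at 24 °C and 70.4, 83.0 and 64.0 CPM at 28 °C in males. In females it held 47.4, 41.9, 35.8 and 38.4 CPM at 18 °C, 47.1, 44.7, 54.0 and 45.9 CPM at 24 °C and 19.6, 25.4, 20.8 and 27.2 CPM at 28 °C. Male means stepped down at each temperature, with 1 library at 18 °C below the highest at 24 °C, and the female libraries at 18 and 24 °C overlapped. GluClalpha had group means of 134, 98.0 and 66.3 CPM in males and 33.6, 35.5 and 17.7 CPM in females at 18, 24 and 28 °C. The adhesion and synapse genes CadN, sif, metro and Nrk completed this group, with sif, a Rac exchange factor that acts at synapses, ranked 13 of 120.

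Broad neuronal markers stayed outside the set. Of 7 such genes (elav, nSyb, Syt1, brp, Rdl, para and cac), 3 were called lower at 28 than at 18 °C in males (Rdl, para and cac). The calls were made by edgeR at an adjusted p of 0.01, and 13.9% of all features were called lower. In females edgeR called 0 of the 7 lower, beside 22.5% of all features, while 4 had an unadjusted p under 0.05 and DESeq2 called 4. Their median changes were -0.42 in males and -0.36 in females on edgeR's log2 scale, beside 0.01 and -0.09 over all features. Over the 120 genes, which were chosen by this contrast, the medians were -1.17 and -1.14. Summed over the 7 genes, male libraries held between 718 and 895 CPM at 28 °C, against 1005 to 1302 CPM at 18 °C, and female libraries held between 219.8 and 337 CPM at 28 °C, against 277 to 345 CPM at 18 °C. None of the 7 was at 0 in any library, and their part in the falls of the 120 genes was not tested.

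The chemosensory genes of the set were the odorant binding proteins Obp19a, Obp19b, Obp28a and lush, which carry odors through the fluid around olfactory neurons, with lush needed to sense a male pheromone, the olfactory receptor Ir75a, the ion channel gene ppk29 and Antdh, an antennal dehydrogenase. In females, Obp19a, Obp28a, lush and Antdh had at least 81.9% of their fall at 24 °C, and Obp19b, Ir75a and ppk29 did not. Obp19a had 16.8, 14.4, 9.67 and 4.51 CPM at 18 °C, 1.34, 2.41, 0.900 and 2.45 CPM at 24 °C and 1.08, 1.83, 2.21 and 2.45 CPM at 28 °C in females. Male libraries held 4.38, 2.47, 3.19 and 10.3 CPM at 18 °C, 2.09, 3.86, 1.04 and 1.50 CPM at 24 °C and 1.31, 3.28 and 1.86 CPM at 28 °C. The female libraries at 24 and 28 °C overlapped and lay below all 4 at 18 °C, while all 3 male groups overlapped, and Obp19a was the 1 gene of the set whose mean at 24 °C lay below that at 28 °C in both sexes. The median share of the fall that was already present at 24 °C was 59.7% in males and 81.9% in females over these 7 genes, beside 39.4% and 7.67% over the 120. The group means in females at 18, 24 and 28 °C were 3.87, 3.69 and 0.988 CPM for Ir75a, 11.1, 8.68 and 4.18 CPM for Obp19b and 4.02, 3.24 and 1.73 CPM for ppk29. Of the 22 genes listed under the symbol Obp, which leaves out lush, 2 were called lower and 2 higher at 28 than at 18 °C in males, and 6 lower and 8 higher in females. Over all features, 13.9% were called lower and 15.4% higher in males, and 22.5% lower and 18.9% higher in females.

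Arr1, which encodes an arrestin that shuts off rhodopsin in photoreceptors, was the 1 gene of the 120 found in the lists of phototransduction genes and eye markers. Male libraries held 2788, 2664, 2041 and 2474 CPM at 18 °C, 1678, 1739, 1580.1 and 1511 CPM at 24 °C and 875, 998 and 749 CPM at 28 °C. Female libraries held 704, 696, 645 and 695 CPM at 18 °C, 629, 607, 767 and 501 CPM at 24 °C and 228, 259, 224 and 393 CPM at 28 °C. The 18 and 28 °C groups were separate in each sex. Of 17 phototransduction genes, 8 were called lower at 28 than at 18 °C in males, beside 13.9% of all features. In females 2 were called lower and 2 higher, beside 22.5% and 18.9% of all features. The second visual arrestin, Arr2, had group means of 2576, 2256 and 1922 CPM in males and 722, 944 and 701 CPM in females at 18, 24 and 28 °C. Over 11 eye markers, Arr1 among them and none at 0 in any library, the summed level lay between 7943 and 10553 CPM at 28 °C, against 13962 to 18122 CPM at 18 °C, in males, and between 2973 and 4770 CPM, against 4322 to 5061 CPM, in females.

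Of the circadian clock, per and vri were in the set. Both encode repressors in the feedback loops of the clock, per acting on the CLK and CYC activators and vri on transcription of Clk. The libraries of per varied little, with 41.97, 41.8, 43.0 and 41.98 CPM at 18 °C, 26.5, 26.1, 23.2 and 21.8 CPM at 24 °C and 14.0, 13.3 and 12.7 CPM at 28 °C in males. In females they held 17.8, 20.8, 16.2 and 16.5 CPM at 18 °C, 18.5, 18.6, 19.1 and 16.6 CPM at 24 °C and 5.60, 6.88, 7.33 and 7.32 CPM at 28 °C. Male levels stepped down at each temperature with no overlap, and female levels at 18 and 24 °C overlapped before the fall at 28 °C. For vri the group means were 143, 111 and 81.4 CPM in males and 76.7, 97.0 and 43.0 CPM in females at 18, 24 and 28 °C. Of the 8 clock genes listed, 5 were called lower in males at 28 than at 18 °C (per, vri, cwo, Pdp1 and cyc). Higher were 2 (Clk and cry), and the shares of all features were 13.9% lower and 15.4% higher. In females 2 were called lower (per and vri) and 2 higher (tim and cry), beside 22.5% and 18.9% of all features. Levels of clock genes vary over the day, and per the methods of the study all flies were collected in the late morning, so the values describe that part of the day.

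**Figure D3:**
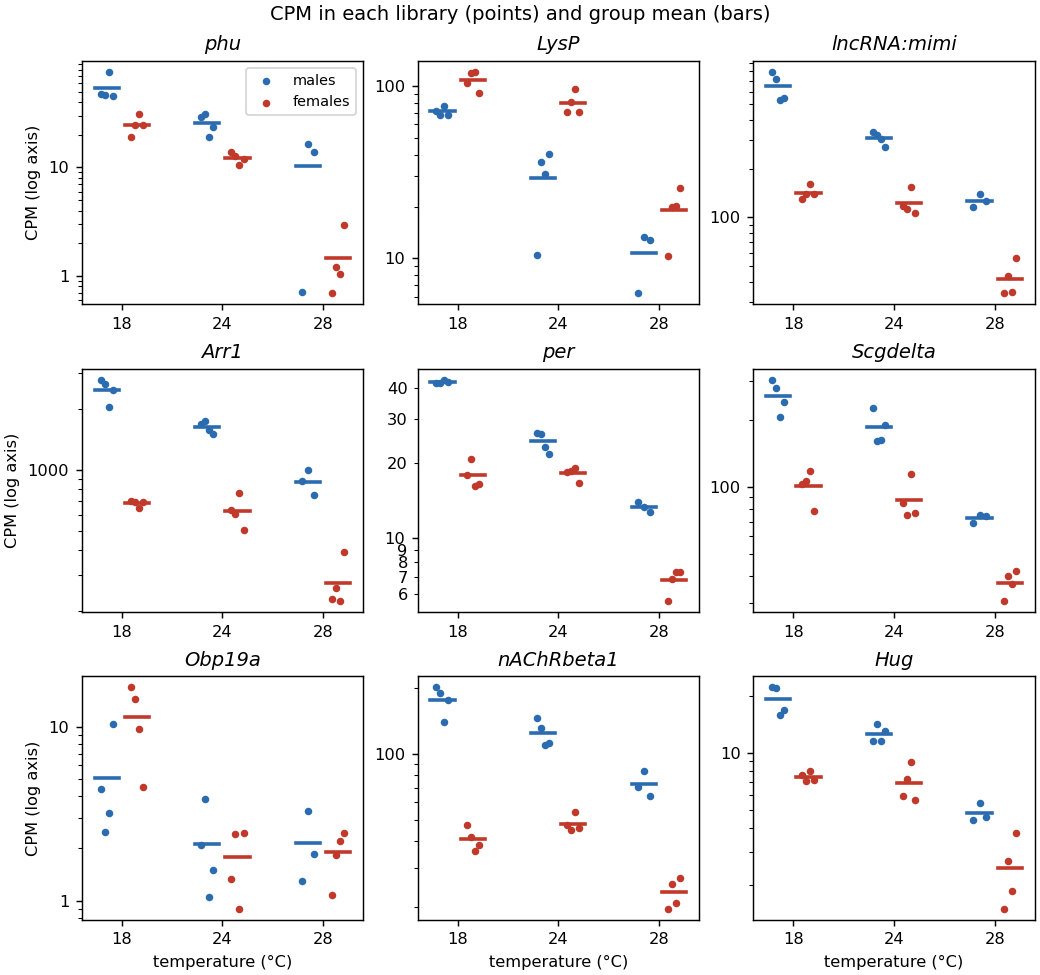
CPM of 9 of the genes in each library (points, log axis), with the group mean as a bar, at 18, 24 and 28 °C in males (blue) and females (red). Male means step down at both temperature steps in most panels. Female levels at 18 and 24 °C overlap for LysP, lncRNA:mimi, Arr1, per, Scgdelta, nAChRbeta1 and Hug, and not for phu and Obp19a. Obp19a in females is low at both 24 and 28 °C.

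Muscle genes in the set were Scgdelta, a subunit of the sarcoglycan complex that anchors the muscle membrane, the troponin C genes TpnC41C and TpnC25D, which bind calcium to start contraction, and Zasp52 and Zasp66, proteins of the Z-disc. Scgdelta had 304, 278, 207 and 242 CPM at 18 °C, 228, 161.1, 164 and 190.0 CPM at 24 °C and 68.8, 74.9 and 74.1 CPM at 28 °C in males. Its female libraries held 104, 106, 119 and 77.9 CPM at 18 °C, 84.4, 75.3, 114 and 76.2 CPM at 24 °C and 30.8, 39.8, 36.7 and 41.8 CPM at 28 °C. The 28 °C libraries lay below all others of their sex. In the sarcomere list of 17 genes, which holds TpnC41C and Zasp52, 4 were called lower and 3 higher at 28 than at 18 °C in males. The shares of all features were 13.9% and 15.4%. In females 10 were called lower, beside 22.5% of all features. The myosin heavy chain gene Mhc had edgeR changes of 0.19 in males (adjusted p = 0.2273) and 0.07 in females (adjusted p = 0.6065).

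Among regulators, the set held the transcription factors fru, pros, ss, br, mamo, NfI, sug and vg and the splicing factor Rbfox1. The sex determination gene fru, which shapes male courtship circuits, had group means of 88.3, 60.4 and 46.5 CPM in males and 27.9, 27.9 and 15.1 CPM in females at 18, 24 and 28 °C. For br, an ecdysone-induced factor, the means at 24 °C lay above those at 18 °C in both sexes, as they did for pre-rRNA:CR45845 and for no other gene of the set. Mitochondrial genes were Mpcp1, a phosphate carrier, Cox17 and COX7AL2, which serve cytochrome c oxidase, and MagR, an iron-sulfur assembly factor. Mpcp1 had group means of 196, 168.7 and 83.9 CPM in males and 71.5, 69.99 and 29.3 CPM in females. Genes of cilia and microtubule motors were Dhc93AB, an axonemal dynein heavy chain, Ttc30, a part of intraflagellar transport, and Kif3C, a kinesin. Npl4, a cofactor of the p97 segregase, Atg10, an autophagy enzyme, and Odc2, an ornithine decarboxylase, were grouped as protein turnover and polyamines.

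Genes of defence and the gut in the set were LysP, Drsl5, a peptide of the drosomycin family, GILT3, a thiol reductase gene, obst-B, a chitin binding protein, and Nepl4, of the neprilysin family. LysP and Drsl5 had changes opposite to those of most genes of their lists. Of the 5 lysozymes measured, LysB and LysD were called higher at 28 than at 18 °C in both sexes and LysE in females, whereas LysP was called lower in both sexes and LysX in males, with an edgeR change of -5.14. Of 21 antimicrobial peptide genes, 16 were called higher in males, beside 15.4% of all features. In females 17 were called higher, beside 18.9%, and 1, Drsl5, was called lower, beside 22.5%. Its libraries held 66.6, 69.3, 76.5 and 59.5 CPM at 18 °C, 39.3, 49.7, 43.4 and 57.0 CPM at 24 °C and 24.8, 45.8 and 41.3 CPM at 28 °C in males. In females they held 27.3, 38.8, 26.2 and 26.3 CPM at 18 °C, 16.1, 38.0, 14.8 and 13.9 CPM at 24 °C and 8.36, 15.2, 12.8 and 22.0 CPM at 28 °C. In females, 1 library at 24 °C stood with the 18 °C libraries and the other 3 with those at 28 °C.

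Among the 120 genes, 10 belonged to one of 24 pathway lists, and these 10 lay in 6 lists. The lists with none of the 120 included the ribosomal proteins, of which 77 of 85 were called lower at 28 than at 18 °C in females and 5 in males. The shares of all features called lower were 22.5% in females and 13.9% in males. No gene of the gut protease, cytochrome P450, heat shock, Turandot or insulin pathway lists was in the set. The remaining 66 genes were given no role here. Their change at 28 against 18 °C lay between -2.81 and -0.75 in males and between -3.44 and -0.75 in females, as wide a range as that of the whole set. They include the lncRNAs mimi, noe, CR43334 and CR44898 and the antisense RNAs CR44106 and CR44843. Those of them among the 25 highest scores and not yet named were CG32726, CG13428, CG42259, CG13833, CG15412, SmydA-4, of the SET and MYND domain family, and TM4SF, a tetraspanin.

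The fall was placed differently between the steps in the 2 sexes. In males the median change was -0.44 at 24 against 18 °C and -0.65 at 28 against 24 °C. In females it was -0.07 at 24 against 18 °C and -0.93 at 28 against 24 °C, on the log2 (CPM + 1) scale. The median share of the whole fall that was present at 24 °C was 39.4% in males and 7.67% in females. For 114 genes the male mean at 24 °C lay between a higher mean at 18 °C and a lower one at 28 °C, beside 26.26% of all ranked genes. The female mean did so for 73, beside 27.84%, and lay above the 18 °C mean for 46, against 48.94% of all ranked genes. Ranked genes that rose from 18 to 28 °C cannot count as between here. The shares of 26.26% and 27.84% are therefore not those of all intermediate means. Both steps share a group with the choice of the genes, the 18 and the 28 °C libraries. The difference of the shares between the sexes was not tested.

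**Figure D4:**
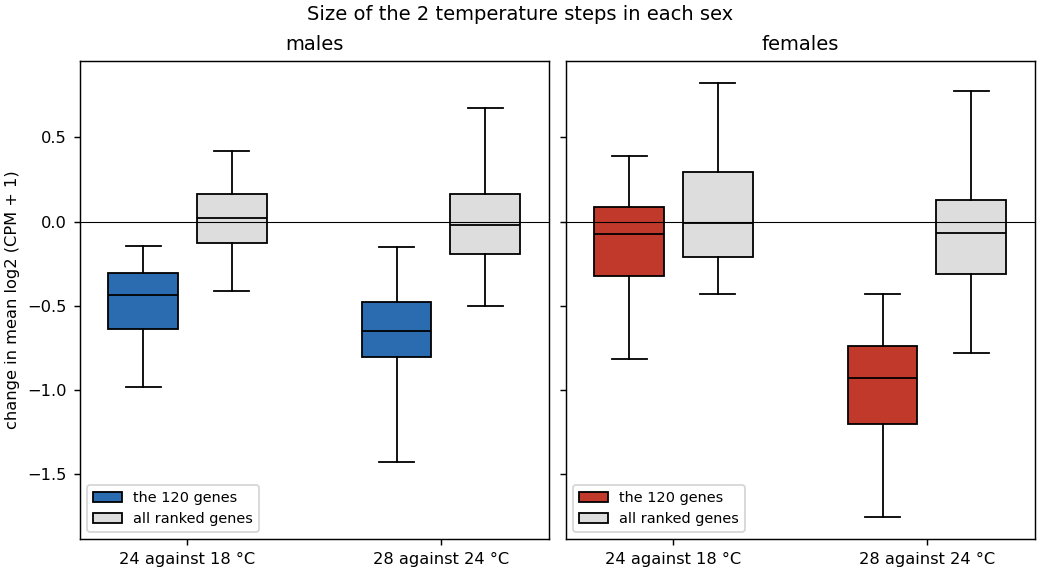
Change in mean log2 (CPM + 1) at 24 against 18 °C and at 28 against 24 °C in males (left panel) and females (right panel), for the 120 genes (colored) and all ranked genes (grey). Boxes span the quartiles with the median as a line, and whiskers run from the 5th to the 95th percentile. The colored boxes have medians of -0.44 and -0.65 in males and -0.07 and -0.93 in females.

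In counts of calls by edgeR at an adjusted p of 0.01, 26 of the 120 genes were lower at 24 than at 18 °C in males, beside 1.68% of all features. Higher were 0 of the 120, or 1 at an unadjusted p under 0.05 and 0 with DESeq2, beside 2.13% of all features. The genes lower in males include LysP, rtet, Dhc93AB, Ddc, per, fru, nAChRbeta2, TpnC25D, 7B2 and the lncRNAs mimi and noe. With only the 2 groups compared in the fit, 6 were called, and without male 24 °C replicate 3, 9. In females 16 were lower at 24 than at 18 °C, beside 11% of all features. The largest of these falls were those of Obp19a (-2.68 on edgeR's log2 scale), Obp28a (-1.81), Antdh (-1.50), lush (-1.28) and Odc2 (-1.13). Higher at 24 than at 18 °C in females was 1 gene, sosie (0.85), beside 14.5%. At 28 against 24 °C, 69 were lower in males, beside 4.21% of all features, and 106 in females, beside 18.6%, and 0 were higher in either sex, beside 6.09% and 9.7%. Without male 28 °C replicate 2 the count of 69 was 38. At 28 against 18 °C, the contrast of the rule, 116 were lower in males, beside 13.9%, and 118 in females, beside 22.5%, and 0 were higher in either sex, beside 15.4% and 18.9%. At these 2 contrasts 0 genes were also higher at an unadjusted p under 0.05 or with DESeq2. Not called at 28 against 18 °C were CG13947 in both sexes, sug in females, and Obp19a, Obp28a and Drsl5 in males. Each of these contrasts shares libraries with the rule, and the counts are given as a description. In females, 2 of 7 neuron markers, 6 of 11 eye markers and 4 of 9 muscle markers were called higher at 24 than at 18 °C, and the others did not pass in that direction. The neuron markers summed to between 419 and 535 CPM at 24 °C, against 277 to 345 CPM at 18 °C, the eye markers to between 5377 and 7861 CPM, against 4322 to 5061 CPM, and the muscle markers to between 3113 and 4584 CPM, against 2516 to 2964 CPM. Their part in the female levels at 24 °C was not tested.

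The sexes were compared at 24 °C, in libraries that did not enter the score, although a gene under 0.5 CPM in any of them had been removed from the 120 genes and from all features alike. Of the 120 genes, 86 were higher in males, beside 37% of all features, and 12 were higher in females, beside 37.4%, by the quasi-likelihood test of edgeR, adjusted over 9698 features by the Benjamini-Hochberg method, at a threshold of 0.01. The other 22 did not pass. The median difference, males minus females, was 0.95 on the log2 scale over the 120 genes and 0.02 over all features. The male mean was above the female mean at all 3 temperatures for 97 genes, or 80.83%, against 40.24% of all ranked genes. Between 83 and 93 genes were called higher in males and between 11 and 13 higher in females under the 8 alternatives run and with any 1 library left out.

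Markers of tissues also differed between the sexes. At 24 °C all 7 neuron markers and all 11 eye markers were called higher in males, with medians of 1.27 and 1.21, and 7 of 9 muscle markers, with a median of 0.81, whereas 7 of 9 ovary germline markers were higher in females, with a median of -3.78. The neuron markers summed to between 949.9 and 1099.9 CPM in males, against 419 to 535 CPM in females. All 10 ovary markers with counts, of which 9 were tested, summed to between 885 and 1088 CPM in males, against 4361 to 5619 CPM in females. None of these markers was at 0 in any library. Total counts did not overlap between the sexes, so depth and sex cannot be told apart, and the part of tissue make-up in the differences was not tested.

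The largest difference in favor of males was that of CG18628 (chr3L:10639740-10640136 in dm6), with 3456, 3124, 3248 and 2999.6 CPM in males, against 169.9, 201, 218 and 159 CPM in females at 24 °C. This was a difference of 4.18 ± 0.19 (log2 ± SE, adjusted p = 2e-14 by edgeR). CG18628 also fell in both sexes despite this gap, with 1397, 1758 and 1823 CPM in males at 28 °C, against 5491, 5560.0, 3429 and 4839 CPM at 18 °C. In females it held 60.1, 89.9, 97.4 and 89.8 CPM at 28 °C, against 145, 174, 186 and 164 CPM at 18 °C. In favor of males it was followed by CG40472, Ir75a, COX7AL2 and CG13833, whose edgeR differences were 2.06 ± 0.16, 2.06 ± 0.21, 1.99 ± 0.20 and 1.91 ± 0.26. Ir75a had 15.1, 16.2, 13.2 and 13.5 CPM in males, against 3.47, 4.37, 3.65 and 3.25 CPM in females, with no overlap.

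The 12 genes higher in females were rtet, CG31517, sosie, CG10725, GILT3, CG5246, Nepl4, LysP, CG42565, CG44142, CG4842 and CG12116. The largest difference was that of rtet, with 2.99, 4.02, 5.01 and 4.55 CPM in males, against 43.0, 35.4, 30.6 and 41.9 CPM in females, a difference of -3.10 ± 0.18 (adjusted p = 6.9e-13 by edgeR). CG31517 had 2.54, 2.24, 1.77 and 1.79 CPM in males, against 16.1, 14.7, 14.7 and 16.5 CPM in females, a difference of -2.80 ± 0.18. For sosie the values were 11.1, 10.2, 11.3 and 13.1 CPM in males, against 62.3, 68.3, 52.6 and 59.5 CPM in females, a difference of -2.33 ± 0.13. No library of one sex overlapped the other in any of the 3. In females sosie held 5.09, 5.48, 7.16 and 6.96 CPM at 28 °C, against 36.6, 36.8, 33.8 and 26.4 CPM at 18 °C, so its level was highest at 24 °C in that sex. CG10725 and GILT3 followed with differences of -2.03 ± 0.27 and -1.73 ± 0.23. By group, beside 71.7% of the 120 genes and 37% of all features, those higher in males were all 5 neuropeptide genes, all 6 of transmitter synthesis and reception, 3 of 4 of adhesion and synapse, 3 of 7 of chemosensation, 2 of 3 of vision and clock, all 5 of muscle, 2 of 3 of cilia and motors, 7 of 9 transcription and splicing factors, all 4 of mitochondria, all 3 of protein turnover and polyamines and 1 of 5 of defence and the gut. Of the last group, 3 were higher in females, beside 10% of the 120 genes and 37.4% of all features. The groups were not tested against each other.

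**Figure D5:**
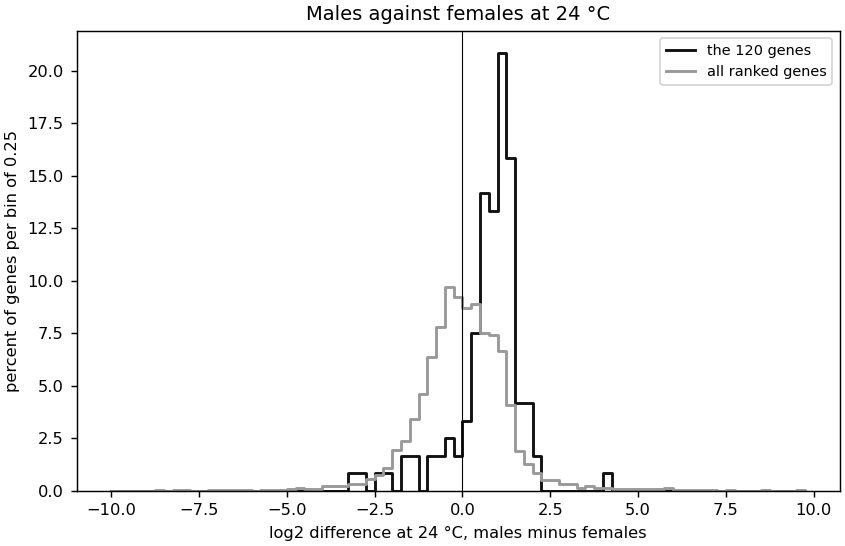
Distribution of the edgeR log2 difference between males and females at 24 °C (males minus females) for the 120 genes (black) and all ranked genes (grey), as percent of genes per bin of 0.25. The black curve has its median at 0.95 and the grey one at 0.02, and CG18628 is the single gene beyond 4 among the 120.

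Replicates of a group also differed along the set. The mean of log2 (CPM + 1) over the 120 genes lay between 4.18 and 4.30 in males at 28 °C, against 5.28 to 5.50 at 18 °C. In females it lay between 3.08 and 3.46 at 28 °C, against 4.28 to 4.53 at 18 °C. Within groups, 102 of the 120 genes were above their group mean in female 28 °C replicate 4, 99 in male 18 °C replicate 1 and 96 each in female 18 °C replicate 2 and female 24 °C replicate 3, while 21 were in each of female 18 °C replicate 4 and female 28 °C replicate 1. The median pairwise correlation of the genes' deviations from their group means was 0.27 over the 23 libraries for the 119 distinct rows and 0.02 for all ranked genes. Over the 8 libraries at 24 °C it was 0.26 and 0.05. These correlations are a description, since the genes share libraries and depth.

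Summed over the set, the 120 genes held between 7158 and 7709 CPM per male library at 28 °C, against 15355 to 19971 CPM at 18 °C, and between 2244 and 3076 CPM per female library at 28 °C, against 5275 to 6195 CPM at 18 °C. CG18628, Arr1, Zasp66, Zasp52 and fau had the highest mean CPM, which is not divided by gene length, and lush, obst-B, CG42524, CG32551 and ppk29 the lowest, between 2.19 and 3.37 CPM. Total expected counts lay between 17727137 and 20119003 in males and between 21998441 and 23194619 in females, so that 1 CPM stands for 17.7 to 23.2 counts. The least abundant genes of the set rest on few counts in females at 28 °C. The median of mean CPM was 20.3 over the set and 39.0 over all ranked genes.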

How the data were processed

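Expected counts from RSEM were deposited by the authors as 1 table of 23 columns, before filtering and normalization. Per the labels and methods, RNA was enriched with oligo dT and sequenced on BGISEQ-500. Reads were cleaned with SOAPnuke, transcripts assembled with HISAT and StringTie, and levels estimated with Bowtie2 and RSEM, with dm6 as the build. Versions are not given in the sources used here. The table holds 11152 features.

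CPM used column totals. Symbols were updated by NCBI gene ID (18 of the 120 genes changed). Rounded counts of the 9698 features at or above 0.5 CPM in all libraries were fitted with edgeR 4.0.16 (R 4.3.3, limma 3.58.1), TMM factors and 6 group means, and tested by quasi-likelihood with Benjamini-Hochberg adjustment at 0.01. Simulated 2-fold changes in 200 of the 9698 genes were recovered for 175, with 2 false calls, for males against females at 24 °C. The simulation gave all groups the same means apart from these 200 genes. In the data, 37% of features were called higher and 37.4% lower in males at 24 °C. The count of false calls therefore need not carry over to that comparison. Figures and other values used Python 3.11.15.

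Named genes are the 25 highest scores, members of 24 pathway and 12 tissue marker lists, genes near the rank limit, those within 10 kb of another, those with the highest and lowest CPM, the 5 largest sex differences each way, genes whose 24 °C mean lay outside the other 2 in both sexes, and groups of shared annotation. Genes, lists and roles were chosen with earlier results of these data known. Alternatives were DESeq2 1.42.0, library totals without TMM, other filters, a replicate block, only the groups compared, a threshold of 0.05, a pseudocount of 0.1, TMM library sizes for the ranking, and each library left out. Library sizes from the kept features were added after the data were seen.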

Additional observations from a re-analysis of the deposited data

Results flagged for a closer look

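In 6 of 130 groups of 4 libraries examined (the mean over the 120 genes and the 25 highest scores), 1 library stood apart by Dixon's ratio, and chance gives about 1 in 20. For phu, male 18 °C replicate 3 held 75.7 CPM, with the others at 45.9 to 47.3 CPM. For per, the same library held 43.0 CPM, with the others at 41.8 to 41.98 CPM. Female 24 °C replicate 2 held 53.7 CPM of CG13428, with the others at 30.98 to 32.7 CPM, and 13.0 CPM of Obp19b, with the others at 6.94 to 7.44 CPM. Male 24 °C replicate 1 held 17.9 CPM of CG42259, with the others at 12.7 to 12.9 CPM. Female 18 °C replicate 3 held 645 CPM of Arr1, with the others at 695 to 704 CPM.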

How the results depend on the processing

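Of the 120 genes, between 100 and 110 kept a place under the other rankings (a pseudocount of 0.1 gave 100) and between 102 and 120 with 1 library left out, 78 of them in all 23 such rankings. The share of the fall present at 24 °C had a range of 38.6% to 40.7% in males and 7.26% to 8.50% in females under the other settings. With 1 library left out it had a range of 37.0% to 41.7% in males and 2.09% (without female 24 °C replicate 4) to 13.0% (without female 24 °C replicate 3) in females. Counts of genes lower at 24 than at 18 °C in males, 26 in the fit reported, were 63 at a threshold of 0.05, 58 with DESeq2 and 6 with only the groups compared, when 630, 492 and 23 of all features were called, against 163. Without 1 library they had a range of 9 to 35, with 15, 11 and 17 without male 18 °C replicates 1, 2 and 4 and 11, 9 and 14 without male 24 °C replicates 2, 3 and 4. In females, the 16 genes lower at 24 °C became 25 and the 1 higher became 9 at a threshold of 0.05, and 7 were higher with only the groups compared. Without 1 library, 11 to 18 were lower and 1 to 4 higher. The 69 genes lower at 28 than at 24 °C in males became 39 with only the groups compared and had a range of 38 to 82 without 1 library. In females the 106 had a range of 93 to 107. At 28 against 18 °C the counts without 1 library were 111 to 118 in males and 114 to 118 in females, and at 24 °C 83 to 92 genes were higher in males and 11 to 13 in females. A fit with only 2 groups has fewer residual degrees of freedom by design, and the cause of these shifts was not tested. With the replicate number as a block, 86 genes were higher in males and 12 in females at 24 °C, 32 were lower at 24 than at 18 °C in males and 18 in females. Deviations of same-numbered libraries of different groups had correlations from -0.453 to 0.654 (median 0.0902, 26 of 55 pairs over 0.1). Those of differently numbered libraries had correlations from -0.639 to 0.628 (median -0.0312, 35 of 165 pairs over 0.1). Whether the numbers mark a pairing or a batch was not tested. A planned search of promoters for motifs was not run. Depth limits the genes near 1 CPM, which rest on 17.7 to 23.2 counts.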

Other observations

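The pre-rRNA:CR45845 had group means of 11.96, 18.1 and 5.14 CPM in males and 11.0, 13.0 and 5.78 CPM in females at 18, 24 and 28 °C, in libraries enriched for polyadenylated RNA. CG13947, near the rank limit, had 115.5 CPM in 1 male library at 28 °C against 12.7 CPM in another, and was not called lower at 28 °C in either sex.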
